A study of Mus musculus with 6 samples.

Results

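The genes described here encode the chaperones and signalling proteins of the endoplasmic reticulum (ER), the compartment in which secreted and membrane proteins fold. They were chosen by symbol, and all 35 were found among the 23402 genes in the deposited table. Its values are FPKM, fragments scaled for transcript length and library depth. By the labels, the RNA came from whole terminal ileum, where the small intestine meets the colon, of 6 mice at 6 weeks of age. All drank dextran sodium sulfate (DSS), an epithelial irritant, and were sampled on day 6. The control group, Il17rafl/fl;Atoh1-cre-, held 3 littermates with floxed alleles of Il17ra, a subunit of the receptor for interleukin-17 (IL-17), and no Cre. The other group, Il17rafl/fl;Atoh1-cre+, held 3 mice with the same floxed alleles and Cre under Atoh1, the transcription factor gene of the secretory lineage (Paneth, goblet and enteroendocrine cells). Both groups received DSS, and no mice without DSS were analysed here. The tissue also holds enterocytes, muscle and immune cells outside the Atoh1 lineage, so a change confined to secretory cells is diluted, and fewer cells of a type cannot be told apart from less RNA per cell. The groups are called Cre-negative and Cre-positive below, with the replicate number of the labels.

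Paneth, goblet and plasma cells secrete large amounts of protein and depend on ER folding. When unfolded protein accumulates, 3 sensors in the ER membrane respond in what is called the unfolded protein response. ATF6 is cut to release a transcription factor, and IRE1 (encoded by Ern1) splices Xbp1 mRNA so that it encodes another. Both factors induce chaperones, disulfide isomerases and the machinery that carries misfolded proteins out of the ER for degradation. PERK (encoded by Eif2ak3) slows translation in general while that of ATF4 increases, and ATF4 induces genes of amino acid supply and, on prolonged stress, CHOP (encoded by Ddit3). Splicing of Xbp1 and translation of ATF4 cannot be read from gene-level FPKM values. The members were read as 3 sensors, 25 genes of the ATF6 and XBP1 arm (called the chaperone arm, with Xbp1 itself) and 7 genes of the ATF4 arm.

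The libraries held an estimated 8880000 to 10420000 fragments, from the steps in the lowest values, and listed 16317 to 16547 genes above 0. Il17ra did not check the labels: it stood at 6.04, 5.91 and 6.53 FPKM in the Cre-negative libraries and at 7.93, 8.36 and 6.07 FPKM in the Cre-positive ones (exact two-sided permutation p = 0.2), all exons together. Directions below are therefore those of the libraries as labelled. Goblet cell markers (Zg16, Tff3 and 8 others) summed to between 6324 and 8088 FPKM and Paneth cell markers without defensins (Lyz1, Itln1 and 5 others) to between 7427 and 14628 FPKM, so that secretory cells were present in every library. Of 10 pancreatic acinar markers, 7 were listed at 0 in all libraries.

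The promoter windows of 10 of 21 chaperone arm members held a known ER stress element, and those of 3 of 7 ATF4 arm members held another element. RefSeq promoter windows (GRCm38.p6, 250 bases before to 50 after the annotated start) were at hand for 30 of the 35 members. The ER stress response element ERSE (CCAAT and CCACG with 9 free bases between them, on either strand, as for all elements here) was found in 8 of the 30 and in 0.119% of all 32851 windows. The shorter ERSE-II (ATTGG and CCACG with 1 free base between them) was found in 2, against 0.0365% of all windows. The 10 genes with either element all belong to the chaperone arm, and the other 11 of its members with a window held neither. The core of the C/EBP-ATF response element, CARE (TGATGNAA, N standing for any base), which ATF4 binds with a partner, was found in 4 members against 3.97% of all windows. These were Asns, Chac1 and Trib3 of the ATF4 arm and Herpud1 of the chaperone arm. The core of the unfolded protein response element, UPRE (TGACGTG), was found in Hspa5 only, against 2.01% of all windows. No ERSE, ERSE-II, UPRE core or CARE letters were in the windows of Atf4, Ddit3, Sesn2 and Ppp1r15a. ERSE and ERSE-II share the bare half-site CCACG, which 24 of the 30 members and 32.8% of all windows hold. The members were picked for this pathway, so these counts describe them, and a match of letters is not a measured binding site.

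Of the windows shown in full, 3 are from the chaperone arm and 3 from the ATF4 arm, and all hold ERSE, ERSE-II, UPRE core or CARE letters. Among members with a window, ERSE or ERSE-II was found in 10 of 21 of the chaperone arm and 0 of 7 of the ATF4 arm. CARE was found in 1 of 21 and 3 of 7. The elements do not mark every member of an arm. Herpud1 of the chaperone arm holds a CARE beside its ERSE-II, and windows of other members in both arms hold none of the elements. Each window is printed in the direction of the gene, with ERSE, ERSE-II, UPRE core and CARE letters in capitals.
Hspa5 (chr2:34771840-34772139, plus strand): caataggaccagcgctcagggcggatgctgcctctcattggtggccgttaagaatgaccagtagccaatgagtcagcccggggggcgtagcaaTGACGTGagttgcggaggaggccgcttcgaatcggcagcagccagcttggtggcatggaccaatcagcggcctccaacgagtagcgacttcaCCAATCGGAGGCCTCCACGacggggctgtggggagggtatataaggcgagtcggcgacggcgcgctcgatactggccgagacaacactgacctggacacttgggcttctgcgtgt
Hsp90b1 (chr10:86705395-86705694, minus strand): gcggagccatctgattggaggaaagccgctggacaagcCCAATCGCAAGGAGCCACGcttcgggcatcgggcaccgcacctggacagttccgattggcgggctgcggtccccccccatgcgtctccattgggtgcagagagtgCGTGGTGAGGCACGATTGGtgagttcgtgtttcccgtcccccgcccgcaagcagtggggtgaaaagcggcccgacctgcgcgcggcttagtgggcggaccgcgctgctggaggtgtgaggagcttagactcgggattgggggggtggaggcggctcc
Herpud1 (chr8:94386179-94386478, plus strand): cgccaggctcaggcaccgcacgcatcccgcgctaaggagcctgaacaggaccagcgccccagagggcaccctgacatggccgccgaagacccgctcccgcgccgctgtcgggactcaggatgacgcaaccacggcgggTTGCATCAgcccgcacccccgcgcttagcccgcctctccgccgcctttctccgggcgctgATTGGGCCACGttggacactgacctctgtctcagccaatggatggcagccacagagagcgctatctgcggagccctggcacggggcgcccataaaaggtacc
Asns (chr6:7693160-7693459, minus strand): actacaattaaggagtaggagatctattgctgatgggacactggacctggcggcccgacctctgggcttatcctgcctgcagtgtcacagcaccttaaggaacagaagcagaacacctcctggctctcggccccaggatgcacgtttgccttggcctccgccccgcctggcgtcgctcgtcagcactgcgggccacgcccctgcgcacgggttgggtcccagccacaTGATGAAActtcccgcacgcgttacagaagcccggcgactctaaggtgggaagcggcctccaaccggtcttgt
Trib3 (chr2:152344011-152344310, minus strand): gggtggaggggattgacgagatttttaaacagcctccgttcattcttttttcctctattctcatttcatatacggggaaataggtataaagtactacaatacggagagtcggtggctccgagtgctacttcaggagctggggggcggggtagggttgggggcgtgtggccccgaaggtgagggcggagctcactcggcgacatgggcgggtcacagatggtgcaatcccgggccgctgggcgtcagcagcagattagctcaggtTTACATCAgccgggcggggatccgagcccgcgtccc
Chac1 (chr2:119350992-119351291, plus strand): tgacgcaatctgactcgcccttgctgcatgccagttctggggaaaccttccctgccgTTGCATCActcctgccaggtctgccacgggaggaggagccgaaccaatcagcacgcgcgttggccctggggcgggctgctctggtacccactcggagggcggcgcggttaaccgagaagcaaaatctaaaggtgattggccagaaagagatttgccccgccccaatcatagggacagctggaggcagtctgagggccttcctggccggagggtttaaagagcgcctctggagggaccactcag
In Hspa5 the ERSE lies 65 to 47 bases before the start and the UPRE core 157 to 151 bases before it. Hsp90b1 holds an ERSE on each strand, 212 to 194 and 107 to 89 bases before the start. Herpud1 has its ERSE-II 52 to 42 bases and its CARE 112 to 105 bases before the start, the only window of a member with both kinds of element. The CARE of Asns lies 23 to 16 bases and that of Chac1 193 to 186 bases before the start, while that of Trib3 lies 14 to 21 bases after it.

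The other ERSE and ERSE-II matches are shown with 10 bases on each side, with the match in capitals, so that the fixed ends and the free middle of the element can be compared. Calr and Creld2 carry it on the opposite strand, so that theirs begin with the reversed half-site.
Pdia6: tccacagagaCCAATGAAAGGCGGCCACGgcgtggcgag
Dnajc3: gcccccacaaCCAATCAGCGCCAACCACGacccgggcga
Canx: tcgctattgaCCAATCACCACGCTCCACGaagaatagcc
Syvn1: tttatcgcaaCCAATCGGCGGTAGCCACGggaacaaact
Calr: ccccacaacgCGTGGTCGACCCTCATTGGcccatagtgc
Creld2: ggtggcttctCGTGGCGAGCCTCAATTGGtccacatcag
Dnajb11: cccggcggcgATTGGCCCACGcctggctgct

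The chaperone arm was highly expressed and the ATF4 arm mostly low. Mean levels over the 6 libraries ran from 12.8 to 645 FPKM in the chaperone arm (median 62.8), from 1.30 to 74.3 FPKM in the ATF4 arm (median 3.15) and from 11.9 to 16.6 FPKM among the sensors. P4hb, the classical protein disulfide isomerase, had the highest mean of the members and ranked 96 among the 12695 genes tested. Calr ranked 202, Hspa5 226 and Hsp90b1 238, and 9 members averaged at least 100 FPKM. Genes of the ATF4 arm other than Atf4, Asns and Ddit3 averaged below 5 FPKM. Their values rest on few fragments. Estimates per library were 10 to 29 for Chac1 and 41 to 69 for Trib3. They were 44 to 69 for Ppp1r15a and 85 to 115 for Sesn2. Ddit3, although above 5 FPKM, also had few, an estimated 21 to 49 per library. Counting error alone is thus large for Chac1 and Ddit3. The coefficient of variation over the 6 libraries had a median of 10.3% in the chaperone arm (4.25% for Sel1l to 17.7% for Pdia6) and of 15.1% in the ATF4 arm (8.29% for Atf4 to 36.9% for Chac1). All 35 members passed the filter of a mean of 1 FPKM.

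**Figure D1:**
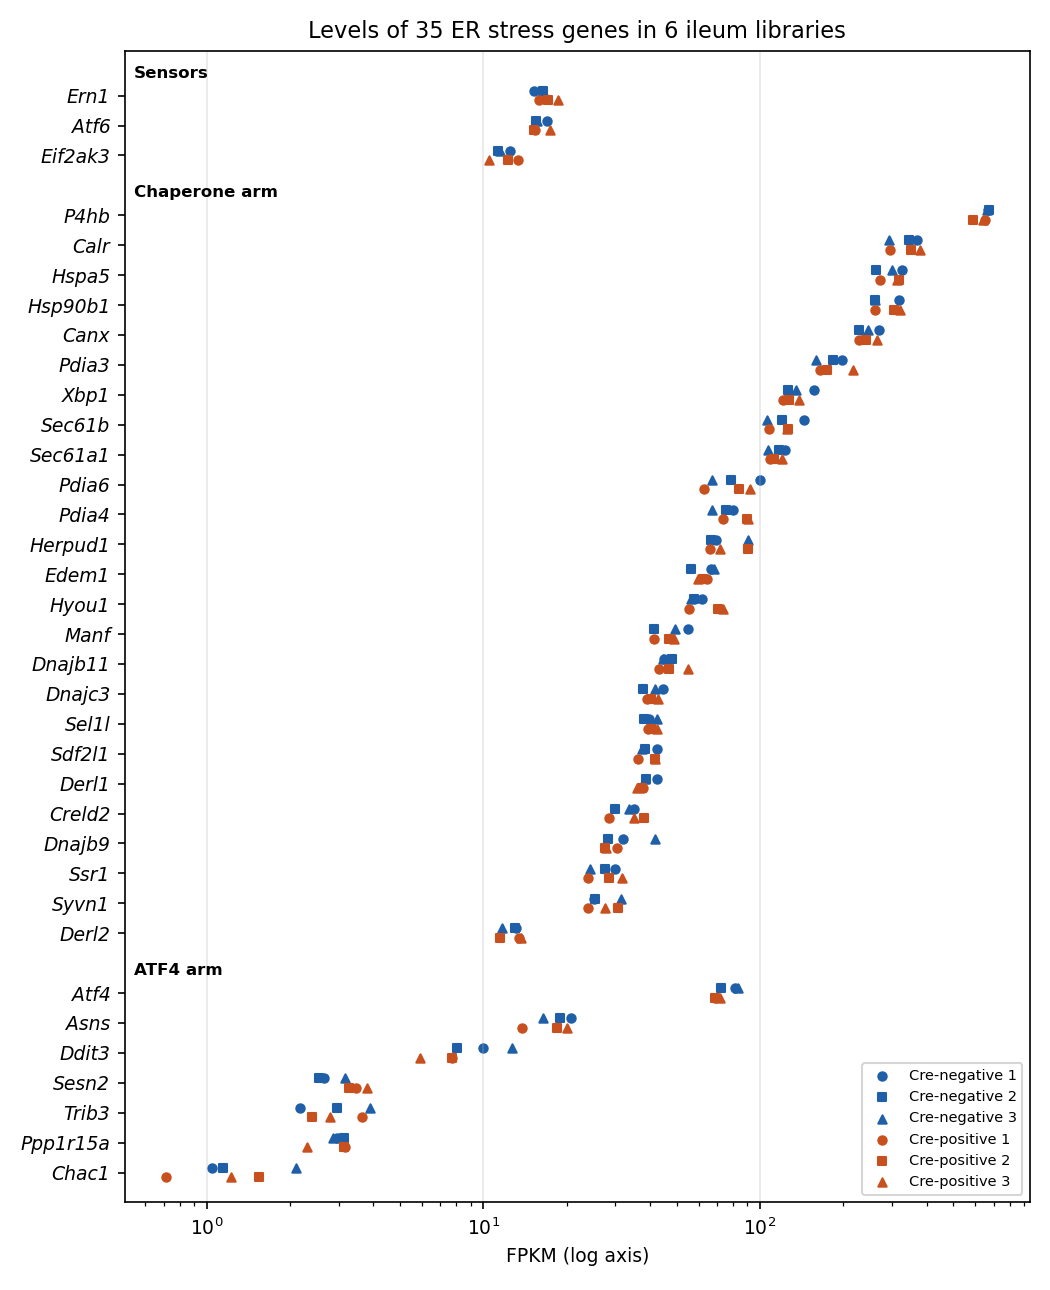
FPKM (log axis) of the 35 members in each of the 6 libraries, ordered by mean level within each arm, with Cre-negative libraries in blue above Cre-positive libraries in orange and the marker shape giving the replicate number. The chaperone arm spans 12.8 to 645 FPKM and the points of both groups overlap for all members but P4hb, Derl1, Atf4, Ddit3 and Sesn2.

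The comparison of the groups is of Cre-positive against Cre-negative mice under DSS, a design meant to remove Il17ra from Atoh1-lineage cells. That loss was not seen in the Il17ra levels given above. No mice with Cre and without floxed alleles were included, so an effect of Cre itself cannot be told apart from one of Il17ra. By limma on log2(FPKM + 1), 0 of 35 members passed an adjusted p of 0.05, as did 0% of the 12695 genes tested. Unadjusted p was under 0.05 for 1 member, Ddit3, against 3.62% of all genes. Ddit3 was lower in the Cre-positive libraries, as were 1.07% of all genes at that p, while 0 members and 2.54% of all genes were higher. The smallest adjusted p among the members was 0.998. Estimates lay above 0 for 16 members and below 0 for 19, so 45.7% were above 0, against 58.4% of all genes. These counts moved with the scaling: 7 members lay above 0 with median-of-ratios scaling (20% of members, against 49.5% of all genes), 20 under quantile normalization (57.1% against 50.5%) and 31 after rescaling to an equal sum (88.6% against 83.1%). In the chaperone arm, 13 of 25 lay above 0 as deposited, and 5, 18 and 24 under those scalings in the same order. The median log2 fold change was 0.0094 for the chaperone arm, -0.10 for the ATF4 arm and 0.03 for all genes tested. With libraries rescaled to an equal sum of FPKM, the medians were 0.12 for the chaperone arm, 0.0059 for the ATF4 arm and 0.13 for all genes, so that scaling moved all genes and the members by a similar amount.

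The intervals were narrow enough to bound most differences. The 95% interval of the fold change lay within 1.5-fold in both directions for 33 of 35 members (94.3%), against 81.2% of all genes tested, and within 2-fold for all 35, against 96.4%. The exceptions at 1.5-fold were Ddit3 (log2 fold change -0.45, interval -0.85 to -0.05) and Chac1 (-0.16, interval -0.67 to 0.34). For the chaperone arm, no interval reached below -0.56 or above 0.46 on the log2 scale. On this scale the change of genes near 1 FPKM is understated, and the intervals assume the scaling of the deposited table.

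**Figure D2:**
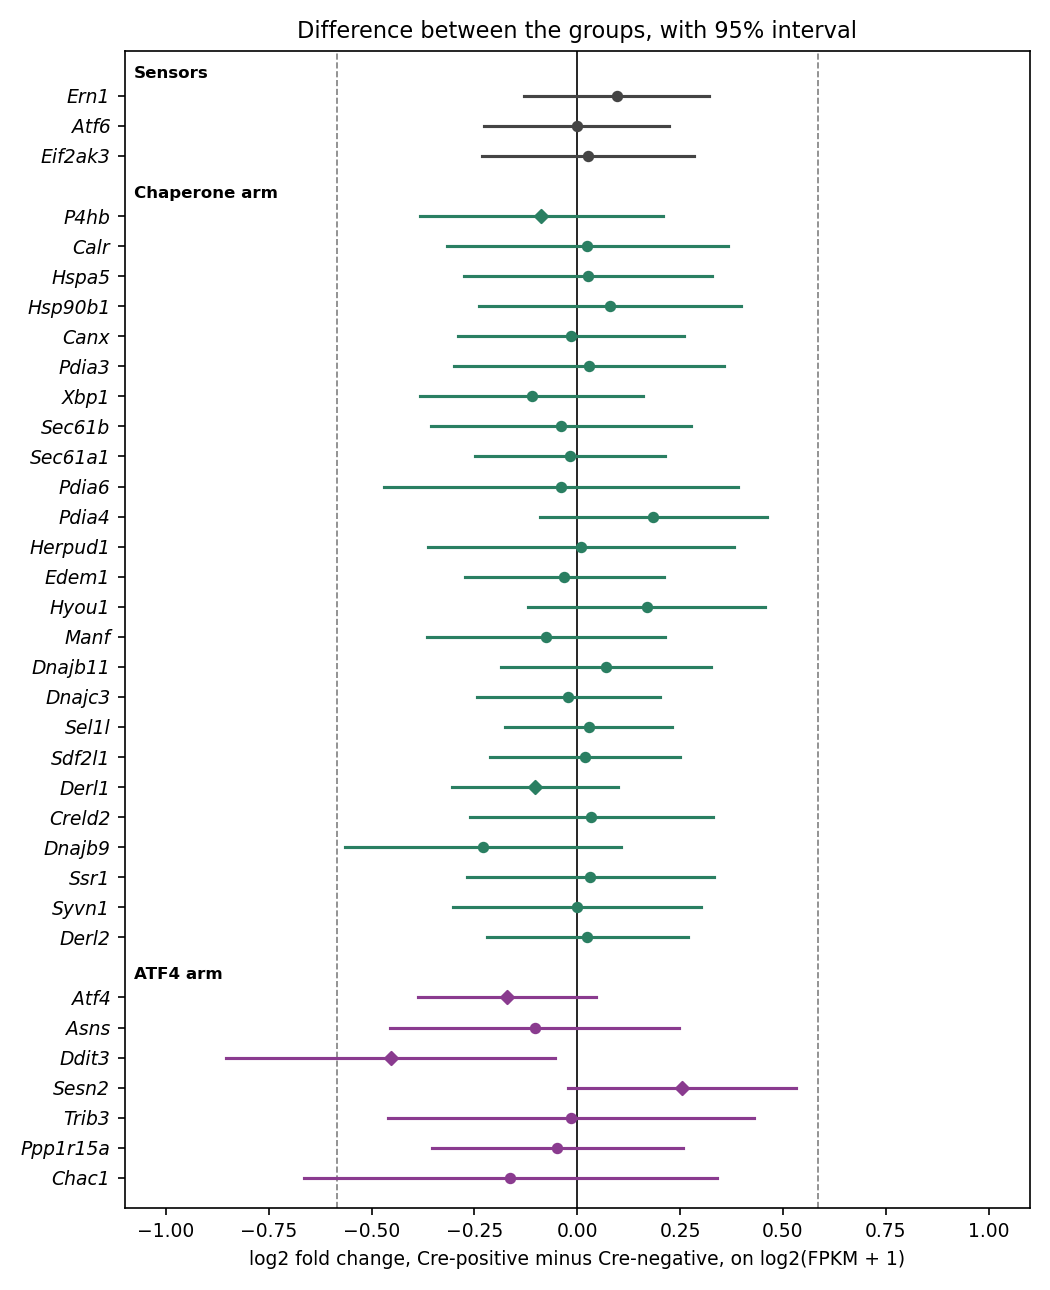
Log2 fold change (Cre-positive minus Cre-negative, on log2(FPKM + 1)) of each member with its 95% interval from limma, with dashed lines at 1.5-fold and diamonds for members whose groups do not overlap. Intervals of all 25 chaperone arm members lie between the dashed lines, while those of Ddit3 and Chac1 cross the lower one.

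The sensors did not differ between the groups beyond the spread of the libraries. Ern1, which encodes IRE1, had 15.2, 16.4 and 16.4 FPKM in the Cre-negative libraries and 15.9, 17.1 and 18.7 FPKM in the Cre-positive ones (log2 fold change 0.10, SE 0.10). The Cre-positive 3 library was the highest, and the groups overlapped. Atf6 had 17.0, 15.5 and 15.7 FPKM against 15.4, 15.2 and 17.5 FPKM (-0.0019, SE 0.10), and the Cre-positive group held both the lowest and the highest value. Eif2ak3, which encodes PERK, had 12.5, 11.3 and 11.5 FPKM against 13.3, 12.3 and 10.5 FPKM (0.03, SE 0.11), again with both extremes in the Cre-positive group. Ern2, the IRE1 form of goblet cells and other mucus-secreting epithelium, belongs to the related list described below. Its Cre-positive libraries (9.98, 10.8 and 9.33 FPKM) all lay above its Cre-negative ones (8.21, 9.10 and 8.07 FPKM; log2 fold change 0.22, SE 0.10, limma unadjusted p = 0.064, adjusted p = 0.998), and it was singled out after its values were seen.

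Xbp1, the transcription factor that plasma and Paneth cells need, had 157, 126 and 135 FPKM in the Cre-negative libraries and 121, 127 and 138 FPKM in the Cre-positive ones. Only the first Cre-negative library stood apart, and the log2 fold change was -0.11 (SE 0.12, 95% interval -0.38 to 0.16; 0.0036 after rescaling to an equal sum). That library also had the highest summed level of 10 plasma cell markers, among them Igj and Xbp1 itself, at 1429 FPKM. The other libraries had between 794 and 1137 FPKM. The same library was highest for the summed Paneth markers (14628 FPKM, against 7427 to 11840 FPKM), for smooth muscle markers (962 FPKM, against 629 to 789 FPKM) and for the sum of FPKM over all genes (601242, against 494907 to 549292). The part of cell composition or scaling in the Xbp1 value was not tested.

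Within the HSP70 and HSP90 system, the main chaperones did not separate the groups. Hspa5, which encodes BiP, the HSP70 that binds unfolded chains and holds the sensors inactive, had 325, 263 and 299 FPKM against 272, 317 and 313 FPKM (Cre-negative against Cre-positive; means 296 ± 31.3 and 301 ± 24.5 FPKM, SD, n = 3 each). The groups overlapped, and the log2 fold change was 0.03 (SE 0.13), turning to -0.0086 with median-of-ratios scaling. Hsp90b1, which encodes the ER form of HSP90 (GRP94), had 317, 260 and 261 FPKM against 260, 306 and 319 FPKM (0.08, SE 0.14). Here 1 Cre-negative and 2 Cre-positive libraries were high and the others about equal. Hyou1, a large HSP70 relative that exchanges nucleotide on BiP, had 61.8, 57.5 and 56.4 FPKM against 55.3, 70.4 and 73.5 FPKM (0.17, SE 0.12). Its Cre-positive 1 library was the lowest of all, and the other Cre-positive libraries were the highest.

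Of the BiP cochaperones, Dnajb9 (ERdj4), which turns BiP on misfolded proteins and on IRE1, had the estimate farthest from 0 in the chaperone arm. It had 32.0, 28.2 and 41.9 FPKM in the Cre-negative libraries and 30.4, 27.6 and 27.7 FPKM in the Cre-positive ones (log2 fold change -0.23, SE 0.14, unadjusted p = 0.15, adjusted p = 0.998). The high Cre-negative mean came from its replicate 3 alone. Dnajb11 (ERdj3), a cochaperone with an ERSE-II just after the start, had 44.9, 48.2 and 44.5 FPKM against 43.3, 46.8 and 55.1 FPKM (0.07, SE 0.11). Manf, a secreted ER stress protein, had 54.8, 41.5 and 49.4 FPKM against 41.5, 46.9 and 49.0 FPKM (-0.08, SE 0.12). Both genes overlapped between the groups, with Cre-positive 3 high for Dnajb11 and Cre-negative 1 high for Manf.

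Among the disulfide isomerases, which form and shuffle disulfide bonds, P4hb and Pdia4 had estimates on opposite sides of 0. P4hb had 666, 670 and 658 FPKM in the Cre-negative libraries and 651, 588 and 639 FPKM in the Cre-positive ones, so that the groups did not overlap. The means were 665 ± 5.72 and 626 ± 33.7 FPKM (SD, n = 3 each), with a log2 fold change of -0.09 (SE 0.13, limma adjusted p = 0.998). The exact permutation p (two-sided) was 0.1, the smallest that 3 against 3 allows. Any gene whose groups do not overlap gets this value, here and below, so it adds nothing to the separation. The P4hb groups overlapped under median-of-ratios, equal-sum and quantile scaling, and its estimate was 0.03 after rescaling to an equal sum. Pdia4 had 80.0, 75.2 and 67.3 FPKM against 73.6, 89.7 and 90.5 FPKM (0.19, SE 0.12, unadjusted p = 0.16). Its Cre-positive libraries 2 and 3 were the highest, and replicate 1 lay within the Cre-negative range. Calr, which encodes calreticulin, a lectin chaperone of glycoproteins, had 369, 346 and 293 FPKM against 295, 351 and 380 FPKM (0.02, SE 0.15; -0.01 with median-of-ratios scaling), with a low library in each group.

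Of the genes of ER-associated degradation, Derl1, which encodes a channel protein for the export of misfolded proteins, was lower in all Cre-positive libraries. It had 42.4, 38.9 and 38.5 FPKM in the Cre-negative libraries and 37.8, 37.6 and 35.9 FPKM in the Cre-positive ones. This gave a log2 fold change of -0.10 (SE 0.09, limma adjusted p = 0.998; exact two-sided permutation p = 0.1), and after rescaling to an equal sum it was 0.0096 and the groups overlapped. Herpud1, which recruits the degradation machinery, and Syvn1, its ubiquitin ligase HRD1, were highest in the same libraries, 1 of each group. Herpud1 had 90.4 FPKM in Cre-negative 3 and 90.2 FPKM in Cre-positive 2, against 65.7 to 71.7 FPKM elsewhere, and Syvn1 had 31.6 and 30.7 FPKM there, against 23.9 to 27.4 FPKM elsewhere. Their log2 fold changes were 0.0094 (Herpud1) and -0.00088 (Syvn1). These genes were singled out after their values were seen.

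The other 14 chaperone arm members, Herpud1 and Syvn1 included, had estimates close to 0. They are Dnajc3, Sdf2l1, Creld2, Pdia3, Pdia6, Canx, Herpud1, Sel1l, Syvn1, Edem1, Derl2, Sec61a1, Sec61b and Ssr1. Their log2 fold changes lay between -0.04 and 0.03, their intervals between -0.47 and 0.39, and the smallest unadjusted p among them was 0.76. They span cochaperones (Dnajc3, Sdf2l1), isomerases (Pdia3, Pdia6), a lectin chaperone (Canx), degradation (Sel1l, Edem1, Derl2) and the translocon through which new chains enter the ER (Sec61a1, Sec61b, Ssr1). The 10 genes with an ERSE or ERSE-II, shown above, had a median log2 fold change of 0.02, with all 10 intervals within 1.5-fold.

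In the chaperone arm, with the deposited scaling, libraries within a group differed from each other more than the groups did. Averaged over the 25 chaperone arm members, the centred log2(FPKM + 1) level was 0.09, -0.06 and -0.02 in the Cre-negative libraries and -0.12, 0.03 and 0.08 in the Cre-positive ones. The group means were 0.00097 and -0.00097, and the pooled within-group SD was 0.09. After rescaling to an equal sum the median log2 fold change of the arm was 0.12, with 24 of 25 estimates above 0, against a median of 0.13 for all genes. Cre-positive 1 held the lowest value for 10 of the 25 members and the highest for 0, while Cre-negative 1 was highest for 10 and Cre-positive 3 for 9. For 10 members the lowest pair of libraries was Cre-negative 3 and Cre-positive 1. These were Pdia3, Pdia4, Pdia6, Calr, Hyou1, Dnajb11, Sdf2l1, Sec61a1, Sec61b and Ssr1. For the 4 disulfide isomerases the mean level was -0.16 in Cre-negative 3 and -0.14 in Cre-positive 1, against 0.13 in Cre-negative 1 and 0.16 in Cre-positive 3. Over all genes tested the same measure was -0.09 in Cre-negative 3, -0.0064 in Cre-positive 1, 0.05 in Cre-negative 1 and 0.02 in Cre-positive 3. The 6 degradation genes had a different order, with Cre-negative 3 highest at 0.09 and Cre-negative 2 lowest at -0.08.

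Summed enterocyte markers were highest in Cre-negative 3 and Cre-positive 1, but not every marker of the list. Apoa4 was highest in Cre-negative 2 (2135 FPKM, against 1489 FPKM in Cre-negative 3 and 2006 FPKM in Cre-positive 1). Fabp6 had 9.79 FPKM in Cre-negative 3 but 0.316 FPKM in Cre-positive 1. Both Fabp6 (0.316 to 9.79 FPKM) and Slc10a2 (0.0669 to 1.94 FPKM) were low in every library beside the other markers of the list. The sum of 10 enterocyte markers, led by Apoa1 and Fabp2, was 14260 FPKM in Cre-negative 3 and 14270 FPKM in Cre-positive 1, against 8024 and 10865 FPKM in the other Cre-negative libraries and 7883 and 6425 FPKM in the other Cre-positive ones. Summed goblet markers, led by Zg16 and Tff3, were also highest in Cre-positive 1 (8088 FPKM) and Cre-negative 3 (7646 FPKM), but not every marker of the list: Agr2, itself an ER disulfide isomerase, was lowest there (248 and 273 FPKM, against 279 to 372 FPKM), and Spink4 was lowest in Cre-negative 3 (1033 FPKM). The sum of plasma cell markers was lowest in Cre-negative 3 (794 FPKM), while Cre-positive 1 (1063 FPKM) lay mid-range. B cell markers summed to 73.7 and 89.6 FPKM in Cre-positive 1 and 2 and to between 7.42 and 16.1 FPKM in the others. The part of cell composition in the level of the chaperone arm was not tested.

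**Figure D3:**
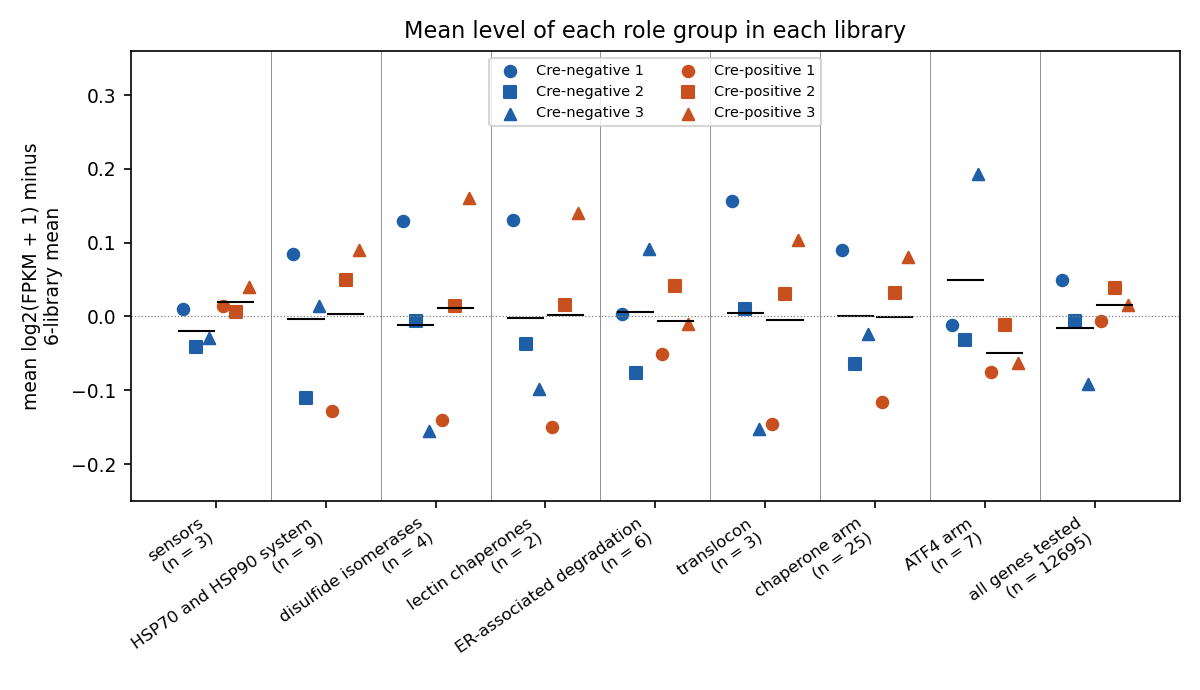
Mean over the members of each role group of log2(FPKM + 1) minus the 6-library mean, for each library (points) and group (black lines, means of 3), with all genes tested at the right. The means of the disulfide isomerases, lectin chaperones and translocon genes are lowest in Cre-negative 3 and Cre-positive 1. With the deposited scaling, the group means of the chaperone arm differ by far less than its libraries.

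In the ATF4 arm, Atf4 and Ddit3 were lower, and Sesn2 higher, in all Cre-positive libraries, and none of them passed the test adjusted over all genes. Atf4, which encodes the transcription factor of the arm (chromosome 15 from 80255184 to 80257541, GRCm38), had 80.9, 72.5 and 83.0 FPKM in the Cre-negative libraries and 69.0, 68.7 and 71.7 FPKM in the Cre-positive ones. The Cre-positive values lay close together below the lowest Cre-negative value. The means were 78.8 ± 5.58 and 69.8 ± 1.65 FPKM (SD, n = 3 each), a ratio of 0.886, with a log2 fold change of -0.17 (SE 0.09, limma unadjusted p = 0.105, adjusted p = 0.998; exact two-sided permutation p = 0.1). The Atf4 groups overlapped after rescaling to an equal sum (log2 fold change -0.057) and under quantile normalization (-0.14), and the estimate was -0.087 with array weights.

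Ddit3, which encodes the stress factor CHOP (chromosome 10 from 127290774 to 127296288), had 9.94, 8.04 and 12.7 FPKM in the Cre-negative libraries and 7.73, 7.73 and 5.91 FPKM in the Cre-positive ones. The lowest Cre-negative value and the highest Cre-positive values differed little. All of these values rest on few fragments, an estimated 21 to 49 per library. The means were 10.2 ± 2.34 and 7.12 ± 1.05 FPKM (SD, n = 3 each), a ratio of 0.697 and a log2 fold change of -0.45 (SE 0.17, limma unadjusted p = 0.031, adjusted p = 0.998; exact two-sided permutation p = 0.1). The unadjusted p of Ddit3 was not under 0.05 when Cre-positive 3 or either of Cre-negative 1 and Cre-negative 3 was left out, with array weights, with the replicate block or after rescaling to an equal sum. The Ddit3 fold change was then -0.45 with the block, -0.46 without Cre-negative 1, -0.30 without Cre-negative 3, -0.34 without Cre-positive 3, -0.35 after rescaling and -0.17 with array weights. Over all single libraries left out it ran from -0.60 (without Cre-negative 2) to -0.30. Exons of Ddit3 overlap those of Mars, the methionyl-tRNA synthetase gene, and of Gm4189 on the opposite strand. The sources used here do not give whether counting used strand, so the Ddit3 value is uncertain. Exons of 12 of the 35 members overlap another annotated gene, for 11 of them 1 on the opposite strand, among them Ppp1r15a, Syvn1, Manf and Hsp90b1. Mars had 16.2, 15.4 and 10.5 FPKM against 12.0, 15.4 and 16.2 FPKM, and its part in the Ddit3 value was not tested.

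Sesn2, which encodes sestrin 2, an inhibitor of the growth kinase mTORC1 (chromosome 4 from 132492032 to 132510501), had 2.65, 2.56 and 3.16 FPKM against 3.46, 3.28 and 3.80 FPKM. All Cre-positive libraries lay above the Cre-negative ones, with a ratio of means of 1.26 and a log2 fold change of 0.25 (SE 0.12, limma unadjusted p = 0.068, adjusted p = 0.998; exact two-sided permutation p = 0.1). The Sesn2 groups overlapped under median-of-ratios and quantile scaling, with the estimate still above 0. Sesn2 thus stood on the other side of 0 from Atf4 and Ddit3, although all belong to 1 arm.

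The 3 ATF4 arm members with a CARE in the window did not separate the groups. Asns, which encodes asparagine synthetase, had 20.7, 18.9 and 16.4 FPKM against 13.8, 18.4 and 20.1 FPKM (log2 fold change -0.10, SE 0.15; 0.0059 after rescaling to an equal sum). Its lowest libraries were Cre-positive 1 and Cre-negative 3, the same as for Pdia3, Pdia4 and Pdia6 but not for P4hb. Trib3, a pseudokinase that restrains ATF4 signalling, had 2.17, 2.97 and 3.91 FPKM against 3.64, 2.41 and 2.79 FPKM (-0.01, SE 0.19; 0.07 after rescaling to an equal sum). Chac1, which degrades glutathione, had 1.05, 1.15 and 2.10 FPKM against 0.714, 1.55 and 1.22 FPKM (-0.16, SE 0.22), with Cre-negative 3 the highest. Ppp1r15a, which encodes GADD34, the phosphatase subunit that ends the translation block, had 2.96, 3.13 and 2.86 FPKM against 3.16, 3.13 and 2.32 FPKM (-0.05, SE 0.13; 0.04 after rescaling to an equal sum). Cre-positive 3 alone was low for Ppp1r15a.

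Across the arm, Cre-negative 3 was the highest library for 4 of 7 members (Atf4, Ddit3, Trib3 and Chac1). The mean centred level of the arm was -0.01, -0.03 and 0.19 in the Cre-negative libraries and -0.08, -0.01 and -0.06 in the Cre-positive ones, so that Cre-negative 3 alone set the Cre-negative mean of 0.05 apart. Without that library the median log2 fold change of the arm was -0.07, with 3 of 7 estimates above 0 in place of 1, and without Cre-positive 3 it was -0.19, also with 3 of 7 above 0. Paneth cell markers were low in the same direction, with 7 of 7 estimates below 0. Of these, 3 had an unadjusted p under 0.05 by limma (against 1.07% of all genes in that direction), and 0 passed the adjusted threshold. Estimates also lay below 0 for 8 of 9 enterocyte and 7 of 8 smooth muscle markers, but for 1 of 10 plasma cell and 0 of 8 B cell markers. Over all genes, 5281 of 12695 lay below 0. Summed Paneth markers were highest in Cre-negative 1 (14628 FPKM) and Cre-positive 1 (11840 FPKM), not in Cre-negative 3. The part of these cell types in the values of the arm was not tested.

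**Figure D4:**
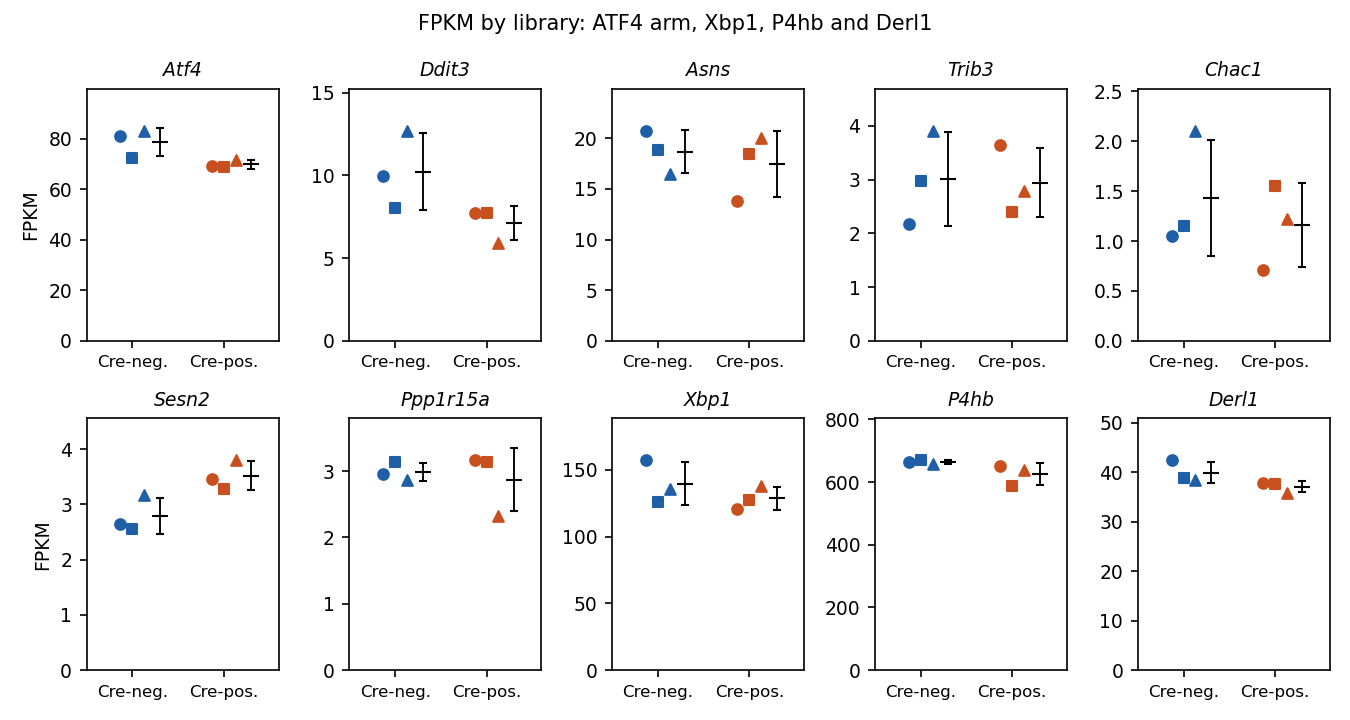
FPKM by library for the 7 ATF4 arm members, Xbp1, P4hb and Derl1, each axis starting at 0, with Cre-negative libraries in blue, Cre-positive libraries in orange and the mean ± SD (n = 3) beside each group. Atf4, Ddit3, P4hb and Derl1 are lower and Sesn2 is higher in all Cre-positive libraries, with gaps between the groups smaller than the larger SD for each of these 5 genes.

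Groups that did not overlap were thus found for 5 of 35 members (14.3%), against 8.37% of all genes tested. Of the 5, 4 were lower in the Cre-positive libraries (11.4% of members, against 2.60% of all genes) and 1 higher (2.86%, against 5.77%). The count was 3 with median-of-ratios scaling, 2 with quantile normalization (Ddit3 and Derl1) and 2 after rescaling to an equal sum (Pdia4 and Sesn2, both higher), so that no member was separated under every scaling. As shares these were 8.57% of members against 8.49% of all genes, 5.71% against 8.1% and 5.71% against 16.7%, so that the larger share among the members was seen with the deposited scaling and not with these 3. Leaving out Cre-negative 2 gave 8 and leaving out Cre-positive 1 gave 9, where fewer libraries separate more easily (16.6% and 26.5% of all genes).

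Other genes of the pathway, listed by function, likewise gave no call. Of 50 other genes of ER folding, translocation and degradation, all tested, 0 passed the adjusted threshold and 0 had an unadjusted p under 0.05 by limma (median log2 fold change 0.0041, 28 above 0 and 22 below). The most abundant were Txndc5, an isomerase of plasma cells and fibroblasts, at 127 ± 24.2 and 135 ± 11.2 FPKM, Serp1, a translocon stabiliser, at 133 ± 8.50 and 127 ± 3.40 FPKM, and Ssr4, a translocon-associated protein, at 129 ± 19.6 and 118 ± 5.03 FPKM (SD, n = 3 each, Cre-negative first). Of 42 other genes of the ATF4 and amino acid response, 38 were tested and 0 passed (median 0.06, 25 above 0 and 13 below), and 3 had an unadjusted p under 0.05, all lower in the Cre-positive libraries, as were 1.07% of all genes at that p. These were Nupr1, a stress-induced chromatin protein (50.4 ± 10.1 and 34.3 ± 8.24 FPKM), Pycr1 of proline synthesis (1.57 ± 0.451 and 0.930 ± 0.109 FPKM) and Eif4ebp1, an inhibitor of translation initiation (15.3 ± 1.16 and 12.7 ± 1.06 FPKM; SD, n = 3 each), and they are named because of those p values. The most abundant of that list were Slc3a2, the shared chain of amino acid exchangers (90.0 ± 10.6 and 95.3 ± 5.76 FPKM), the asparaginyl-tRNA synthetase gene Nars (87.5 ± 11.3 and 85.9 ± 10.4 FPKM) and Aldh18a1 of proline synthesis (78.7 ± 10.4 and 90.3 ± 4.15 FPKM; SD, n = 3 each).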

How the data were processed

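Total RNA of whole terminal ileum was made into directional libraries, 1 per mouse, per the labels' protocols. Tools in the submitters' processing notes are STAR, Cufflinks and Cuffnorm, with FastQC, Trimmomatic, bedtools and SAMtools, and the builds are GRCm38 and mm10, without versions. The authors deposited 1 table of FPKM values with 1 column per library. How libraries were scaled and whether strand was used is not known from the labels. No count model was fitted to FPKM.

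Columns were matched to samples by genotype and number in the titles. The 12695 genes averaging 1 FPKM or more were compared on log2(FPKM + 1) by limma (trend on mean level, two-sided), and p-values were adjusted over all of them by Benjamini-Hochberg (limma 3.58.1, R 4.3.3, Python 3.11.15). The script was tested on simulated data. Depth was estimated from genes with 1 GENCODE M21 transcript over 800 bases. With 200 bases taken off the length, 62.6% to 66.2% of values up to 8 fragments came within 0.06 of a whole number, against a median of 6.82% to 7.74% over other depths. Fragments per gene are estimates from the median coding transcript length.

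The members and lists were chosen with earlier results of these data known. Values per library are given for the sensors, Xbp1, the ATF4 arm, the 4 most abundant and the 8 lowest-p chaperone arm members and members whose groups do not overlap. Of 200 list entries, 2 were matched by another symbol (Igj and Vimp). Of 31 promoter windows, 28 ended in sequence of a GENCODE transcript of the same gene. Listed markers of enteroendocrine cells summed to 161 to 206 FPKM and those of smooth muscle to 629 to 962 FPKM. The 17 alternatives were a pseudocount of 0.1 or 5, a filter at 5 FPKM or none, 3 other scalings, limma without trend, robust or with array weights, the replicate block, and each library left out.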

Additional observations from a re-analysis of the deposited data

How the results depend on the processing

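By limma, 0 members passed the adjusted threshold under any of the 17 alternatives, with the smallest adjusted p of a member between 0.126 (array weights) and 1 (quantile normalization). Unadjusted p was under 0.05 for 5 members with array weights (Creld2, Herpud1, Hyou1, Pdia4 and Sesn2; 14.3%, against 21.4% of all genes) and for 0 to 3 otherwise. The number of genes past the threshold, 0 as reported with 459 at an unadjusted p under 0.05, was 24 with array weights, 2 with a pseudocount of 0.1, a pseudocount of 5 or libraries rescaled to an equal sum, and 0 to 46 with a library left out, the 46 without Cre-positive 3. What the replicate numbers mark is not known. Deviations of same-numbered libraries correlated at -0.13, 0.03 and -0.11 across genes, and those of other pairs at -0.02 to 0.14. So few correlations cannot settle whether the libraries are paired. With the replicate block, 1 gene and 0 members passed, and 0 members had an unadjusted p under 0.05.

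Rescaling to an equal sum moved the median of all genes to 0.13, that of the chaperone arm to 0.12 and that of the ATF4 arm to 0.0059. With a library left out, the chaperone arm median ran from -0.05 to 0.08 and the ATF4 arm median from -0.19 to -0.07. Members whose groups did not overlap numbered 3 with median-of-ratios scaling, 2 under quantile normalization, 2 with libraries rescaled to an equal sum and 5 to 9 with a library left out. The shares over all genes were 8.49%, 8.1%, 16.7% and 12.4% to 26.5%.

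Of the 35 members, 9 changed sign with median-of-ratios scaling (8 of the chaperone arm), 8 under quantile normalization (7), 11 with array weights (9), 15 after rescaling to an equal sum (11) and 6 to 10 with a library left out. Among the members given by library in the report, those with median-of-ratios scaling were Eif2ak3 (-0.0064), Hspa5 (-0.0086) and Calr (-0.011), and under quantile normalization Eif2ak3 (-0.010). After rescaling to an equal sum they were Atf6 (0.11), Xbp1 (0.0036), Manf (0.036), P4hb (0.028), Derl1 (0.0096), Trib3 (0.067), Asns (0.0059) and Ppp1r15a (0.036), and with array weights Atf6 (0.0029), Manf (0.12) and Chac1 (0.11). With a library left out, log2 fold changes that took both signs were Asns -0.21 to 0.046, Atf6 -0.062 to 0.037, Calr -0.070 to 0.13, Chac1 -0.29 to 0.026, Dnajb11 -0.026 to 0.14, Eif2ak3 -0.045 to 0.11, Hspa5 -0.056 to 0.097, Manf -0.18 to 0.013, Ppp1r15a -0.10 to 0.059 and Trib3 -0.17 to 0.14. The cause was not tested.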
